A study of Mus musculus with 10 samples.

Results

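The genes described here encode the muscle nicotinic acetylcholine receptor and the proteins that gather and serve it at the neuromuscular junction. They were chosen by name: the receptor subunits Chrna1, Chrnb1, Chrnd, Chrng and Chrne, the clustering genes Musk, Rapsn and Lrp4, and the synaptic enzyme genes Ache and Colq. All 10 were among the 53465 genes of the count table, and 9 of them were among the 16426 genes with enough counts to test. RNA came from whole pinna prominences, the forming outer ears, micro-dissected from mouse embryos of the C57BL/6 J background at E14.5. A group of 5 wild-type (WT) embryos was compared with 5 mEC1dup/dup embryos, labelled knock-in, in which CRISPR/Cas9 placed an additional copy of the Hmx1 enhancer mEC1 at the endogenous locus of each allele. The question asked of these genes was whether they differed between the genotypes, and which of the fetal and adult receptor subunits the embryonic pinna expressed.

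The muscle receptor is a ring of subunits that opens when acetylcholine from a motor axon binds. Alpha subunits sit with a beta, a delta and either a gamma or an epsilon subunit. The gamma subunit of fetal muscle is exchanged for epsilon as junctions mature. Agrin from the nerve binds Lrp4, which activates the kinase MuSK, and rapsyn then gathers the receptors beneath the nerve ending. Muscles attach to the outer ear and move it in the mouse. In whole tissue, fewer muscle cells and less RNA per muscle cell cannot be told apart.

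Each library held between 17461544 and 18462073 counts. Hmx1, the gene mEC1 acts on, checked the labels: it had 376 to 526 counts in the WT and 976 to 1356 in the mEC1dup/dup libraries (log2 fold change 1.31, adjusted p = 0.000127, the quasi-likelihood fit of edgeR, Benjamini-Hochberg over all tested genes). The groups also differed in other measures. Xist, the transcript of the inactive X chromosome, had at most 5 counts in each WT library and 12812, 19040, 18165, 2096 and 0 in mEC1dup/dup replicates 1 to 5. The embryonic genes gave 18.4% to 23.3% of globin counts in WT and 32.5% to 35.6% in mEC1dup/dup. The replicates were siblings from separate litters by the study's own account, without a statement of which libraries share a litter. With log2 CPM of Xist or the embryonic globin share added to the fit, none of the genes described here was called, and most of the calls over all genes were lost as well.

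None of the 9 tested genes was called different between the genotypes. A call needed an adjusted p no higher than 0.05 and a mean log2 CPM (read counts scaled to the library size) no lower than 1. It took 2.65% of all tested genes, 1.81% as lower and 0.834% as higher, and 2.77% passed by adjusted p alone. These shares rest on 298 lower and 137 higher genes, which became 120 and 34 without mEC1dup/dup replicate 3, and 476 and 179 without WT replicate 4. No tested receptor or junction gene had an unadjusted p under 0.05 with edgeR, DESeq2 or limma, while 16.2% of all tested genes had one with edgeR. In each of the 9 genes the values of the groups overlapped, and 5.07% of all tested genes had groups that did not, 2.75% with every mEC1dup/dup embryo below and 2.33% above. The log2 fold changes ran from -0.25 (Chrnd) to 0.17 (Rapsn), with a median of -0.08 beside -0.00415 over all tested genes. Of the 9, 7 were negative. With each embryo left out in turn, this number ran from 4 (without WT replicate 5) to 9 (without mEC1dup/dup replicate 5). It was 2 (Chrng and Lrp4) with log2 CPM of Xist added to the fit. The 95% intervals of all 9 lay between -0.67 and 0.80, so none reached a change of 1 on the log2 scale in this fit. With the embryonic globin share added, Chrna1 was at -1.03 (adjusted p = 0.898) and Rapsn at 1.22 (adjusted p = 0.918, both edgeR), neither of them called.

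**Figure D1:**
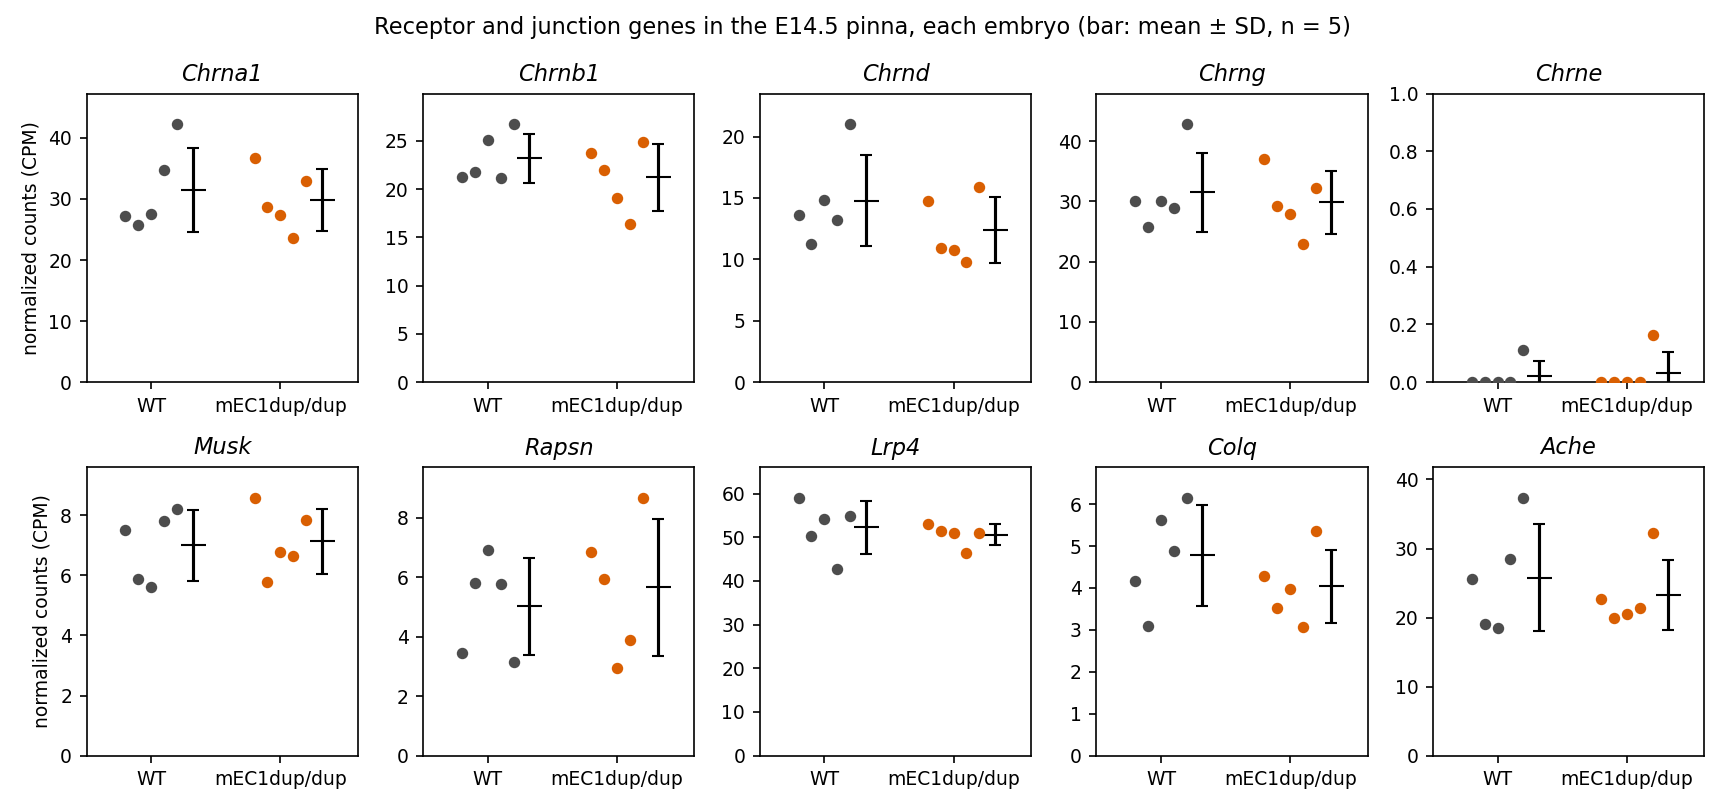
Normalized counts (CPM, linear axes from 0) of the 10 genes in each of 5 WT (grey) and 5 mEC1dup/dup (orange) embryos, drawn in the order of their replicate numbers, with the mean and SD beside them. The groups overlap in every panel, Chrne stays below 0.2 CPM, and WT replicate 5 is the highest WT embryo for 8 of the 10 genes.

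The sequences before the gamma and epsilon genes are shown first because the comparison of these subunits is the one the genes were brought together for. They were taken from RefSeq's 250 bases before each gene start, placed on GRCm39 by exact match, and cut to the part that holds no annotated exon. Such windows were matched for 6 of the 10 genes. Capitals mark CANNTG, the E-box letters that myogenic factors are known to bind. The Chrng stretch is chr1:87133283-87133491 on the plus strand. It lies within the gene's GENCODE span, since a longer annotated transcript starts further upstream. The Chrne stretch is chr11:70510126-70510270 on the minus strand.
Chrng: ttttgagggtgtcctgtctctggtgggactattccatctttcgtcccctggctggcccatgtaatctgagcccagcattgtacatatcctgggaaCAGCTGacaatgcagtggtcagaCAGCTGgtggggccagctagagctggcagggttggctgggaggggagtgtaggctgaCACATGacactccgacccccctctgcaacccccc
Chrne: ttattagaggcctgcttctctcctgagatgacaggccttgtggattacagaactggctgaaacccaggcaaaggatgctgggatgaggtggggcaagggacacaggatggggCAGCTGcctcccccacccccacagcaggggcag

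The Chrng window held 3 CANNTG matches, and 2 of them read CAGCTG, a case of the same letters that reads alike on both strands. The single match in the Chrne window was a CAGCTG. Of 32841 RefSeq windows of the same length, 12.2% held 3 or more CANNTG matches and 1.26% held 2 or more CAGCTG matches, with both strands searched. At least 1 CANNTG match was held by 66.2% and at least 1 CAGCTG match by 13%. The core of the N box, CCGGAA, through which the factor GABP is known to act in nuclei beneath the nerve ending, was found on either strand only in the Chrne window among these 6, and in 12% of all windows. It lay in an annotated exon at chr11:70510079-70510108 on the minus strand, shown with CCGGAA in capitals.
Chrne: cccaaacctagcCCGGAActaacaccctcc

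The alpha gene Chrna1 held 3 CANNTG matches, likewise within annotated exons, and 2 of them read CAGCTG. They are shown in capitals for comparison with those of Chrng, in 30 bases each on the minus strand, at chr2:73410757-73410786, chr2:73410738-73410767 and chr2:73410709-73410738.
Chrna1: ctgtgggcagctCAGCTGtcatgcgggcac
Chrna1: catgcgggcacaCAGGTGatgtaagacaat
Chrna1: tagctgtggagtCAGCTGgcttccaaggcc
The Musk and Chrnb1 windows also held 3 CANNTG matches and the Ache window 1, of which a CAGCTG stood in Musk alone. A match describes letters and does not show that a factor is bound.

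Chrng, the fetal gamma subunit, was among the most abundant of the genes at this stage. It spans chr1:87132379-87140416 on the plus strand, 4583 bases from the delta gene. Its counts in the WT embryos, by replicate number, were 519, 465, 535, 523 and 772. Those in the mEC1dup/dup embryos were 648, 531, 513, 426 and 595. WT replicate 5 stood above all other embryos and mEC1dup/dup replicate 4 below them. The means were 31.5 ± 6.53 CPM in WT and 29.9 ± 5.21 CPM in mEC1dup/dup (SD, n = 5). The log2 fold change was -0.08 (standard error 0.14, 95% interval -0.38 to 0.22, adjusted p = 0.84 from the edgeR test).

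Chrne, the adult epsilon subunit, lies on chr11:70505707-70510125 (ENSMUSG00000014609) on the minus strand. It had no count in 8 of the 10 libraries, 2 in WT replicate 5 and 3 in mEC1dup/dup replicate 5. It was below the filter on low counts and was not tested. Of all counts on the gamma and epsilon genes together, epsilon had 2 of 2816 in WT (0.0710%, 95% exact Clopper-Pearson interval 0.00860% to 0.256%) and 3 of 2716 in mEC1dup/dup (0.110%, 0.0228% to 0.322%). Nearly all such counts were thus from gamma in both genotypes, and the intervals overlap. These intervals cover counting error at most, because reads without molecular identifiers are not independent molecules. They pool the embryos of a genotype and do not cover the spread between embryos. All epsilon counts of each genotype came from its replicate 5.

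In the 8 libraries without an epsilon count, gamma was 142-fold to 216-fold a floor of 3 counts per library. That floor is a one-sided 95% limit for an epsilon count of 0. The two-sided exact intervals of these libraries reach an epsilon share of 0.568% to 0.862%, which allows lower ratios. Per kilobase of annotated exon, which allows for the length of each gene, gamma was 60.0-fold to 91.2-fold that floor. WT replicate 5 had a gamma to epsilon ratio of counts of 386 (95% interval 106 to 3193), and mEC1dup/dup replicate 5 had 198 (67.5 to 964). The log2 ratio of gamma to epsilon, with 0.5 added to each count, was 9.65 ± 0.77 in WT and 9.51 ± 1.19 in mEC1dup/dup (SD, n = 5). Its difference of -0.14 was smaller than the spread between embryos (two-sided exact permutation test over 252 arrangements, p = 0.77). Without mEC1dup/dup replicate 5 the difference was 0.38, and from the counts summed over each genotype it was -0.54. Since most epsilon counts were 0, this ratio depends on the added 0.5, and a change in epsilon was not detectable at this depth.

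The other subunits of the receptor were present in every embryo. Chrna1, which carries most of the acetylcholine binding site, spans chr2:73393557-73410835 (ENSMUSG00000027107) on the minus strand. It had 470, 466, 491, 626 and 762 counts in WT and 643, 521, 504, 437 and 607 in mEC1dup/dup replicates 1 to 5. WT replicates 4 and 5 and mEC1dup/dup replicate 1 were the highest, with 31.5 ± 6.92 CPM in WT and 29.9 ± 5.09 CPM in mEC1dup/dup (SD, n = 5). The log2 fold change was -0.08 (95% interval -0.39 to 0.23, adjusted p = 0.845 from the edgeR test). A long non-coding RNA gene on the opposite strand covers 13.2% of its exonic bases. The library kits named do not mark strand, so reads there cannot be told apart.

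Chrnb1, the beta subunit, ENSMUSG00000041189 on chr11:69674860-69686773 (minus strand), had 368, 393, 447, 382 and 482 counts in WT and 416, 398, 352, 304 and 459 in mEC1dup/dup replicates 1 to 5. The lowest embryo was mEC1dup/dup replicate 4 and the highest WT replicate 5. The log2 fold change was -0.13 (95% interval -0.37 to 0.11, adjusted p = 0.627 from the edgeR test). Chrnd, the delta subunit, ENSMUSG00000026251 on chr1:87118306-87127795 (plus strand), had 236, 203, 265, 239 and 379 counts in WT and 258, 198, 198, 181 and 293 in mEC1dup/dup replicates 1 to 5. WT replicate 5 again lay above all others, and 3 mEC1dup/dup embryos lay below all WT embryos. Its log2 fold change of -0.25 (standard error 0.17, 95% interval -0.63 to 0.12, adjusted p = 0.523 from the edgeR test) was the most negative of the 9, but was -0.09 without WT replicate 5, where Colq was at -0.13.

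The clustering genes were also measured in every library. Lrp4, the agrin receptor, ENSMUSG00000027253 on chr2:91287797-91344248 (plus strand), had the most counts of all 10 genes: 1021, 909, 965, 773 and 991 in WT and 927, 934, 937, 862 and 940 in mEC1dup/dup replicates 1 to 5. Lrp4 is also known from skin, limb and bone, where it acts on Wnt signals, so its counts need not come from muscle. The mEC1dup/dup values lay within the WT range in CPM, and the log2 fold change was -0.05 (95% interval -0.21 to 0.11, adjusted p = 0.812 from the edgeR test), the narrowest interval of the 9.

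Musk, the muscle-specific kinase, ENSMUSG00000057280 on chr4:58285931-58377847 (plus strand), had 7.51, 5.87, 5.61, 7.81 and 8.20 CPM in WT and 8.57, 5.79, 6.79, 6.63 and 7.85 CPM in mEC1dup/dup replicates 1 to 5, from 100 to 150 counts per library. The groups covered nearly the same range, and the log2 fold change was 0.03 (95% interval -0.28 to 0.34, adjusted p = 0.954 from the edgeR test). Rapsn, the scaffold rapsyn, ENSMUSG00000002104 on chr2:90865892-90876082 (plus strand), had 60, 105, 123, 104 and 57 counts in WT and 120, 108, 54, 72 and 160 in mEC1dup/dup replicates 1 to 5. It varied most of the 9 genes tested here, with a coefficient of variation of 32.4% in WT and 40.6% in mEC1dup/dup. WT replicate 5, the highest WT embryo for every receptor subunit, was the lowest for Rapsn. The log2 fold change of 0.17 had the widest interval (-0.46 to 0.80, adjusted p = 0.827 from the edgeR test).

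Ache, acetylcholinesterase, ends transmission by splitting acetylcholine and is also made by neurons and blood cells. It lies on chr5:137285781-137292728 (ENSMUSG00000023328) (plus strand) and had 442, 345, 329, 514 and 674 counts in WT and 397, 361, 377, 396 and 595 in mEC1dup/dup replicates 1 to 5. Replicate 5 was the highest embryo of each genotype, and the other 4 mEC1dup/dup embryos lay between 19.9 and 22.7 CPM. The log2 fold change was -0.14 (95% interval -0.55 to 0.26, adjusted p = 0.768 from the edgeR test). Colq, the collagen tail that anchors the enzyme in the synaptic cleft, ENSMUSG00000057606 on chr14:31243665-31313300 (minus strand), had 72, 56, 100, 88 and 111 counts in WT and 75, 64, 73, 57 and 99 in mEC1dup/dup replicates 1 to 5. The mEC1dup/dup values of Colq lay within the WT range in CPM, except replicate 4 at 3.07, below the WT minimum of 3.1. The log2 fold change was -0.24 (95% interval -0.67 to 0.19, adjusted p = 0.612 from the edgeR test).

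Per kilobase of annotated exon, the order of mean levels in WT was Chrnb1 (8.89 CPM per kb), Chrng (7.49), Chrna1 (6.93), Ache (4.93), Lrp4 (4.86), Chrnd (4.10), Rapsn (2.36), Colq (0.880), Musk (0.833) and Chrne (0.0125). Neighbours in this order overlapped in their ranges over the embryos of each genotype, except at the steps from Rapsn to Colq and from Musk to Chrne. In mEC1dup/dup the order differed only by exchanges of Ache with Lrp4 and of Colq with Musk. With the length of the canonical transcript instead, Chrng came first in WT and Ache stood above Chrna1. The order among the upper 5 genes therefore depends on which length is used.

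The genes differed in how they varied from embryo to embryo. After each genotype's mean was subtracted, log2 CPM of Chrng over the 10 embryos correlated with Chrnd at r = 0.93, with Chrna1 at 0.91, with Chrnb1 at 0.83 and with Colq at 0.76. Values were lower with Musk (0.64), Ache (0.63), Lrp4 (0.46) and Rapsn (0.05). The tested genes most like Chrng on this measure were Ryr1 (0.98), the calcium release channel of muscle, Mylk4 (0.98), Nes (0.98), the intermediate filament nestin, Mypn (0.97), the Z-disc protein myopalladin, and Atp2a1 (0.97), a calcium pump of muscle. Each gene's values come from the same 10 libraries, so that depth and tissue make-up are shared between them, and these values are a description. The neuronal genes Tubb3, Elavl4, Stmn2, Prph and Nefl lay between -0.11 and 0.15.

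Other genes of the junction were read from a list of 24, all of which were tested and none of which was called. Their median log2 fold change was -0.10. Agrn, which encodes agrin, had 446 ± 41.2 CPM in WT and 413 ± 29.3 CPM in mEC1dup/dup (SD, n = 5; log2 fold change -0.11, 95% interval -0.25 to 0.03, adjusted p = 0.461 from the edgeR test). Agrin is made by many cell types besides motor neurons, and these counts do not separate its nerve-derived form. Dok7, the adaptor that activates MuSK from inside the fibre, had 11.7 ± 2.24 CPM in WT and 10.4 ± 1.43 CPM in mEC1dup/dup (SD, n = 5; log2 fold change -0.18, 95% interval -0.47 to 0.11, adjusted p = 0.572). At an unadjusted p under 0.05 (edgeR), 4 genes of the list had negative and 2 positive log2 fold changes. Over all tested genes, 16.2% had such a p in either direction. Closest to the threshold were Sntb1 (log2 fold change -0.33, adjusted p = 0.0537), a syntrophin, and Crkl (0.14, adjusted p = 0.0618), an adaptor that binds Dok7, both named after their values were seen.

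Genes of the nerve were listed as well. Of 11 neuronal nicotinic subunits, 6 were tested and none called (median log2 fold change 0.09). Of 5 genes listed for cholinergic nerve endings or motor neurons, 2 were tested (Slc5a7 and Isl1) and none called. Mnx1, a transcription factor of motor neurons, had no count in any library. These counts do not measure innervation. The summed level of 5 neuronal markers ranged from 64.8 to 730 CPM in WT and from 121 to 307 CPM in mEC1dup/dup, with the highest value in WT replicate 4. None of these 5 and none of 6 Schwann cell or 6 erythroid markers was called. Of 5 epidermal markers 3 were called lower and of 5 fibroblast markers 1, where 1.81% of all tested genes were called lower. None of 5 cartilage or 4 endothelial markers was called. With log2 CPM of Xist in the fit, 1 gene of the whole table was called lower, and with the embryonic globin share none.

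Genes of the contractile fibre, in whose membrane the receptor sits, were read beside them. The 13 fibre genes had a median log2 fold change of -0.53. Beside 1.81% of all tested genes, 7 of them were called lower in mEC1dup/dup and none higher. They were Ckm (-2.25, adjusted p = 0.00126), Myh8 (-0.90, adjusted p = 0.0117), Acta1 (-0.88, adjusted p = 0.00804), Ttn (-0.72, adjusted p = 0.00632), Neb (-0.64, adjusted p = 0.0321), Myh3 (-0.61, adjusted p = 0.0331) and Mybpc1 (-0.53, adjusted p = 0.00327), all from the edgeR test. In 6 of them no embryo of one group overlapped the other, where 2.75% of all tested genes had every mEC1dup/dup embryo below every WT embryo. All 7 calls were lost with log2 CPM of Xist or the embryonic globin share added to the fit, while the 13 log2 fold changes remained negative (median -0.53 and -1.04). The fit with the globin share called no gene of the whole table, Hmx1 included. With each embryo left out in turn, 5 to 8 fibre genes were called. Of 7 myogenic factors 1 was called, Myf6, which was lower (-1.52, adjusted p = 0.00804) and likewise lost its call in both of those fits. Myod1 (0.09, adjusted p = 0.786) and Myog (0.12, adjusted p = 0.745), regulators of differentiating muscle cells, were not called. The lower fibre genes were known when these lists were chosen, so the counts are no independent evidence of a direction.

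**Figure D2:**
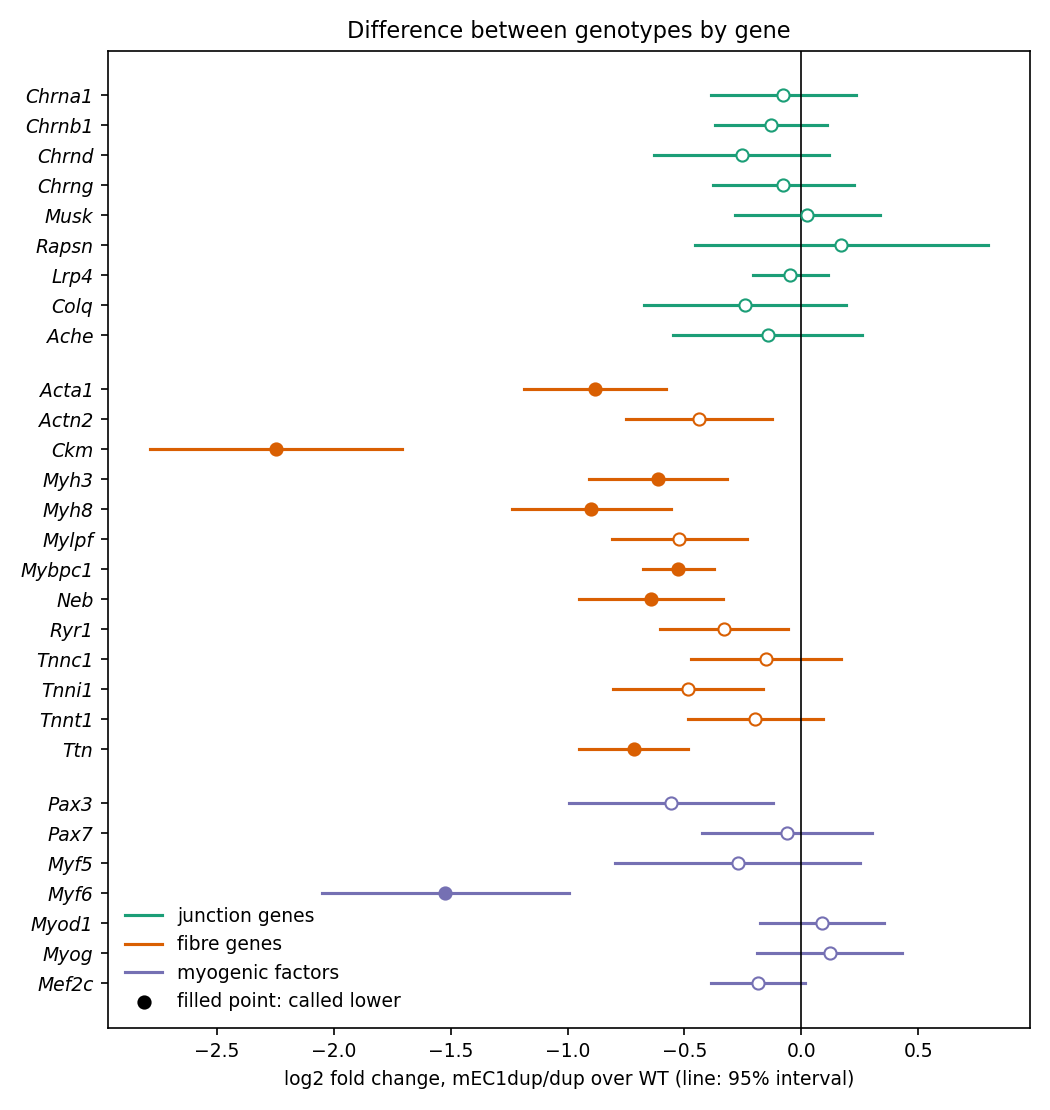
Log2 fold change of mEC1dup/dup over WT with its 95% interval for the 9 tested receptor and junction genes (green), 13 fibre genes (orange) and 7 myogenic factors (purple). Filled points are called lower in the fit by genotype alone: 7 fibre genes and Myf6, and none of the receptor and junction genes.

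Counts of the receptor genes were next set against those of the fibre genes in the same library, which needs no scaling between libraries. The 13 fibre genes had 39265, 35487, 37672, 41562 and 53706 counts in WT and 31787, 26310, 25524, 20923 and 31955 in mEC1dup/dup replicates 1 to 5. Per 1000 of these counts, Chrng had 13.2, 13.1, 14.2, 12.6 and 14.4 in WT and 20.4, 20.2, 20.1, 20.4 and 18.6 in mEC1dup/dup. The groups did not overlap, and the mean log2 ratio differed by 0.56. Of the 9 tested genes, 6 had every mEC1dup/dup embryo above every WT embryo on this measure (Chrna1, Chrnb1, Chrnd, Chrng, Musk and Lrp4). Such a separation also held for 49.3% of all tested genes, whose median difference was 0.63. The value for Chrng was thus close to that of a typical gene on this scale, on which a gene that did not differ in CPM stands higher because the divisor is lower.

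**Figure D3:**
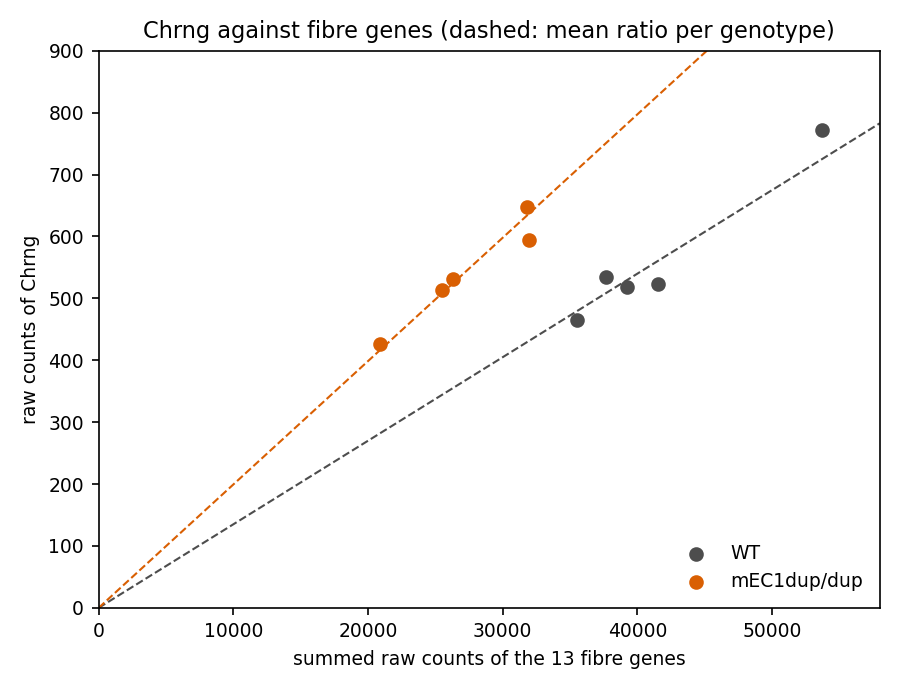
Raw counts of Chrng against the summed raw counts of the 13 fibre genes in each of 5 WT (grey) and 5 mEC1dup/dup (orange) embryos, with dashed lines for the mean ratio of each genotype. The mEC1dup/dup embryos lie on a steeper line, at 18.6 to 20.4 Chrng counts per 1000 fibre counts against 12.6 to 14.4.

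Against Myod1 and Myog together the direction was the opposite. Per 1000 counts of these regulators, Chrng had 219, 205, 226, 176 and 213 in WT and 191, 191, 188, 174 and 166 in mEC1dup/dup replicates 1 to 5, and WT replicate 4 overlapped the other group. The mean log2 ratio differed by -0.19, beside a median of -0.12 over all tested genes. Chrna1 was the only one of the 9 whose groups did not overlap on this measure, with 198 to 211 in WT and 170 to 190 in mEC1dup/dup, where 1.69% of all tested genes had every mEC1dup/dup embryo below every WT embryo and 0.0487% every one above. Both ratios were chosen after the data were seen and carry no test.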

How the data were processed

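RNA was taken from whole E14.5 pinna prominences of 5 WT and 5 mEC1dup/dup embryos. The deposited values are raw counts per gene, without normalization, which the authors obtained with fastp (trimming), STAR (alignment to GRCm39) and featureCounts. Annotation release, strand setting and the handling of multi-mapping reads are not given in the sources used here. The labels and the study's methods name different library kits, neither of which marks strand. Columns were mapped to embryos through the sample descriptions. Symbols and positions were taken from GENCODE vM39, which matched 49355 genes, leaving 0.111% of counts on genes without a symbol.

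Counts were filtered with filterByExpr, scaled by TMM and fitted on the whole table with genotype as the only term, in edgeR version 4.0.16 (glmQLFit, glmQLFTest; R version 4.3.3). Adjusted p is Benjamini-Hochberg over 16426 genes. CPM of single embryos are counts scaled to the TMM-adjusted library size. The fit was also run on simulated counts, whose outcome is not given here. Depth limits the genes with few counts, above all Chrne. Chi-square over degrees of freedom between libraries of a genotype was 2.56 to 18.2, above sampling noise, so none was a copy of another. The edgeR p-values weigh the difference between the genotypes against the spread between libraries of a genotype, estimated with information from all genes. In the fit by genotype alone they do not separate genotype from the Xist and globin differences between the groups.

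The genes described and all lists (pathway, fibre, nerve, cell type markers) were chosen with earlier results of these data known. By rule the text names the 10 genes, called genes of the pathway list with Agrn and Dok7, and the 5 genes most correlated with Chrng. Single fibre genes and myogenic factors were named, and ratios to them computed, after the data were seen. Alternatives were DESeq2 size factors, upper quartile or total count scaling, the DESeq2 Wald test (version 1.42.0), limma-voom (version 3.58.1), other filters and thresholds, the replicate block, covariates for Xist and for embryonic globin, other pseudocounts, and each embryo left out. The single-cell data of the study were not analysed here.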

Additional observations from a re-analysis of the deposited data

Results flagged for a closer look

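In 2 of 18 groups of 5 embryos tested, an embryo stood apart from its group by Dixon's criterion, which chance meets in about 1 in 20 groups. Chrng was highest in WT replicate 5 at 42.8 CPM, with a gap to the next WT embryo of 0.748 of the group's range. Ache was highest in mEC1dup/dup replicate 5 at 32.2 CPM, with a gap of 0.774 of the range.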

How the results depend on the processing

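The number of receptor and junction genes called was 0 under all 20 alternative fits and at adjusted p limits of 0.1 and 0.01. Over 180 pairs of a gene and an alternative, the direction was kept in 164 and reversed in 16, with no call in either. The lowest adjusted p was 0.227 (edgeR, Chrnd with the replicate block). With Xist in the fit, log2 fold changes turned to 0.014 for Chrna1, 0.010 for Chrnb1, 0.0028 for Chrnd, 0.059 for Colq and 0.22 for Ache. Rapsn moved to 0.58 and Musk to 0.13, Chrng was at -0.02 and Lrp4 at -0.06, and over all genes 1 was called lower and 2 higher. With the globin share in the fit, they turned to -0.17 for Musk and 0.45 for Lrp4. There Chrna1 moved to -1.03, Chrng to -0.56, Chrnd to -0.36, Ache to -0.48, Colq to -0.31 and Rapsn to 1.22, Chrnb1 was at -0.12, and no gene in the table was called. The globin share did not overlap between the genotypes, so that it and genotype cannot be told apart in this fit. Xist was only partly aligned with genotype, since mEC1dup/dup replicate 5 had no count of it. The cause of these moves was not tested.

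With each embryo left out in turn, log2 fold changes ran from -0.16 to 0.052 for Chrna1, -0.17 to 0.058 for Chrng, -0.049 to 0.092 for Musk, -0.036 to 0.33 for Rapsn, -0.29 to 0.028 for Ache, -0.36 to -0.095 for Chrnd, -0.37 to -0.13 for Colq, -0.19 to -0.049 for Chrnb1 and -0.11 to -0.00023 for Lrp4, and the difference in the gamma to epsilon log2 ratio from -0.49 to 0.38. From summed counts that difference was -0.54. Without WT replicate 5 the values were 0.052 for Chrna1, 0.058 for Chrng, 0.028 for Ache, -0.095 for Chrnd and -0.13 for Colq. Without mEC1dup/dup replicate 4 Chrng was at 0.0042, without mEC1dup/dup replicate 5 Rapsn was at -0.036 and the gamma to epsilon ratio at 0.38, and Musk was at -0.026, -0.046, -0.049 and -0.013 without WT replicates 2 and 3 and mEC1dup/dup replicates 1 and 5. The gamma to fibre log2 ratio of 0.56 was 0.82 against Acta1 alone, 0.46 without Acta1 and Myh3, and -0.19 against Myod1 and Myog.

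The genotypes share replicate numbers, but deviations of same-numbered libraries correlated at -0.0559 for replicates 1 and at 0.140 to 0.345 in the other 4 pairs (mean 0.162, against -0.0403 for libraries of unlike number). Since not every pair exceeded 0.1, the numbers were not taken as pairing. With the replicate block, 488 genes of the table were lower and 200 higher in place of 298 and 137, and none of the receptor and junction genes was called. Over all genes, leaving out 1 embryo gave 120 to 476 lower and 34 to 179 higher genes. Fewer genes were lower without WT replicates 1 (164), 2 (153), 3 (190) and 5 (237). The same held without mEC1dup/dup replicates 2 (135), 3 (120), 4 (165) and 5 (245). More were lower without WT replicate 4 (476) and without mEC1dup/dup replicate 1 (342). Counts of Chrne are too few for any statement on its change.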
